A study of Mus musculus with 12 samples.

Results

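The data describe 5 miRNA hairpins of 2 families, mmu-mir-26a-1, mmu-mir-26a-2 and mmu-mir-26b of the mir-26 family and mmu-mir-101a and mmu-mir-101b of the mir-101 family (given below without the species prefix), out of 1050 miRNA hairpins with a read in any of 12 small RNA libraries from mouse sperm and from a mouse cell line. The 5 were chosen by name, as hairpins of these families with known action on Ezh2, at a time when their levels in these libraries had been seen, so their levels and fold changes are given as a description without a p-value. Sperm came from the epididymis of C57BL6/J male mice fed, by the labels from 4 weeks of age and by the study's text from a later age, for 7 weeks on a control diet (CD, 16% of kcal from fat) or a high-fat diet (HFD, 69% of kcal from fat by the labels and less by the study's methods), with 3 libraries per diet and the sperm of 3 samples pooled in each. The TM4 line, labelled as a mouse Sertoli cell line (Sertoli cells nurse the germ cells in the testis), gave 2 libraries each from untreated cells (Ctrl), from cells given 10 µM Compound C (CC, an inhibitor of the energy sensor AMPK) for 12 h, and from cells overexpressing the ribonuclease angiogenin from a plasmid (Ang OE). The Ctrl libraries also served as the control of Ang OE, and no empty-vector control is among the 12. The labels do not say whether TM4 replicates came from separate cultures, so errors and p-values measure the spread between these libraries. The levels of Ang and Ezh2 mRNA were not analysed here, since the libraries hold small RNA.

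A miRNA is cut from the stem of a hairpin transcript and guides Argonaute to mRNAs that pair with its seed, bases 2 to 8 from its 5′ end, which lowers the translation and stability of those mRNAs. The mRNA of Ezh2, the enzyme of Polycomb repressive complex 2 that methylates histone H3 at lysine 27, is a known target of both miR-26 and miR-101. The mir-26 hairpins lie within the genes of the Ctdsp phosphatases and are transcribed with them, and miR-26 and miR-101 are both known as miRNAs that are reduced in several tumours.

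The mature sequences are shown because they decide which members share a seed and which members share reads. They are the RefSeq sequences of the arm known to bind Ezh2, with the seed in capitals, and all 5 members had a RefSeq entry.
miR-26a-5p (from mir-26a-1 and mir-26a-2): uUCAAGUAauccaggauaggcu
miR-26b-5p: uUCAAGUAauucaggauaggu
miR-101a-3p: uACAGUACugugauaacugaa
miR-101b-3p: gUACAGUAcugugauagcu
The mir-26 members had 1 seed in common, UCAAGUA. Counted from the 5′ end of miR-26a-5p, the mir-26b hairpin differed by C11U and C21U. The mir-101b hairpin differed from miR-101a-3p by A16G alone, with 20 of 21 bases identical, and the annotated miR-101b-3p starts 1 base earlier, which shifts its annotated seed by that base. Since the authors allowed 1 mismatch, reads of miR-101a-3p and miR-101b-3p could in part have been assigned to each other, which was not tested.

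By RefSeq on GRCm38.p6, the build that the labels call mm10, mir-26a-1 lies at chr9:119031796-119031885 on the plus strand, mir-26a-2 at chr10:126995530-126995613 on the plus strand and mir-26b at chr1:74394310-74394394 on the plus strand. The mir-101a hairpin lies at chr4:101346945-101347027 on the minus strand and mir-101b at chr19:29135279-29135375 on the plus strand. In the GENCODE annotation of GRCm39, mir-26a-1 and mir-26b lay in introns of Ctdspl and Ctdsp1, while mir-26a-2 lay in Ctdsp2 and overlapped an exon of some of its transcripts. There, mir-101b lay in an intron of Rcl1, which encodes a protein of ribosomal RNA processing, and mir-101a in the long non-coding RNA gene E130102H24Rik, where it overlapped an exon of some transcripts. Each of the 5 hairpins lay on the strand of its host gene.

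The 3′ UTR of the canonical Ezh2 transcript, 402 bases on the minus strand of chromosome 6 in GRCm39, was searched on the mRNA strand for the letters complementary to the seeds, which are TACTTGA for miR-26, GTACTGT for miR-101a and TACTGTA for miR-101b. The matches are shown, in capitals with flanking bases, because they are where these seeds could pair with Ezh2 mRNA.
miR-26 seed match, bases 248 to 254 after the stop codon, chr6:47507221-47507227: aaatttgaataaagaaTACTTGAac
miR-101a seed match, bases 59 to 65, chr6:47507410-47507416: gcttcaggaaccttgaGTACTGTgg
miR-101a seed match, bases 114 to 120, chr6:47507355-47507361: attctgaatttgcaaaGTACTGTaa
The letters for miR-101b occurred 1 time, at bases 115 to 121, where they overlap the second match for miR-101a. Of 1599 3′ UTRs within 20% of this length, 3.00% held the miR-26 letters, 2.502% the miR-101a letters and 2.44% the miR-101b letters. These matches describe the sequence and were not tested as sites of regulation.

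The libraries held 11412945 to 35704399 miRNA reads each, and levels are given as reads per 1000000 miRNA reads of the library (RPM), which makes them shares of the miRNA pool and not amounts per cell. Fewer cells of a type and less RNA per cell cannot be told apart in such bulk libraries. Sperm libraries carried male germ cell miRNAs (6 of 6 markers, summed level 2934 to 8359 RPM) and also miRNAs of epithelium (5 of 5, 8946 to 14327), red blood cells (4 of 4, 25239 to 50595), white blood cells (3 of 3, 580 to 1422), smooth muscle (2 of 2, 30612 to 56120) and mesenchymal cells (3 of 3, 1165 to 1667). TM4 libraries also held smooth muscle markers, at 49714 to 129039 RPM, a range that overlaps that of sperm and reaches above it. Germ cell markers summed to 934 to 2045 RPM there, below their sum in sperm, mostly from mir-34c. Of the 6, mir-741, mir-871 and mir-880 reached at most 0.148, 0.593 and 0 RPM in TM4 libraries. In Ang OE mir-34c, at 1834 and 1956 RPM, lay within its sperm range of 1441 to 2762. In TM4 libraries the epithelial sum was at most 2.38 and the white blood cell sum at most 4.30 RPM, and mesenchymal markers summed to 12605 to 15801. Red blood cell markers summed to 1762 to 2857 there, almost all from mir-486a and mir-486b. The other markers of that set, mir-451a and mir-144, reached at most 0.952 and 0.164 RPM in TM4 libraries. mir-202, known from Sertoli and other gonadal somatic cells, reached at most 0.178 RPM in TM4 libraries and 4.86 to 59.8 in sperm libraries, so the label of the TM4 line was not borne out by this marker.

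mir-26a was the main member everywhere. mir-26a-1 and mir-26a-2 yield the same mature miR-26a-5p, and the deposited counts of the 2 hairpins differed by -2 to 83 reads per library, at most 0.0333% of their sum, so they are one measurement divided between 2 names and their sum is used as the level of mir-26a. In CD sperm mir-26a stood at 9612, 11018 and 9080 RPM in replicates 1, 2 and 3, and in HFD sperm at 10239, 10776 and 12764. The Ctrl libraries of TM4 cells had 8839 and 8432, the CC libraries 8617 and 9059, and the Ang OE libraries 11442 and 9411. In order of the means, HFD sperm (11260 ± 1330, SD, n = 3) came before Ang OE (10427 ± 1436, n = 2), CD sperm (9903 ± 1001, n = 3), CC (8838 ± 313, n = 2) and Ctrl (8636 ± 288, n = 2). Each neighbouring pair in this order overlapped, except that the lowest CD library lay slightly above the higher CC library. On its own, the hairpin mir-26a-1 ranked 21 to 24 by read count among the hairpins in sperm, 36 to 38 in Ctrl and CC, and 23 to 27 in Ang OE.

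mir-26b, which has the mir-26 seed and comes from another locus, was the lesser mir-26 product. Its level was 1428, 1410 and 1412 RPM in CD sperm and 1326, 1659 and 1812 in HFD sperm, so the diets overlapped. In TM4 cells it was 2099 and 1962 in Ctrl, 1859 and 2198 in CC, and 3561 and 3386 in Ang OE, where both libraries lay above all others. The order of the means was Ang OE (3473 ± 123.9), Ctrl (2031 ± 96.7), CC (2028 ± 239), HFD sperm (1599 ± 249) and CD sperm (1416 ± 9.86). Ctrl and CC overlapped, as did the diets, while Ang OE and Ctrl, and CC and HFD sperm, did not.

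mir-101a and mir-101b changed places between sperm and TM4 cells. In CD sperm mir-101a stood at 813, 602 and 576 RPM and in HFD sperm at 410, 1033 and 1035, whereas Ctrl had 34.5 and 36.7, CC 32.4 and 42.5, and Ang OE 110 and 129. mir-101b was at 155, 121 and 135 in CD sperm and at 93.9, 228 and 218 in HFD sperm. In TM4 cells mir-101b was at 684 and 629 in Ctrl, 602 and 795 in CC, and 1239 and 1581 in Ang OE. Every sperm library was above every TM4 library for mir-101a and below every TM4 library for mir-101b. For both hairpins the diets overlapped, CC and Ctrl overlapped, and both Ang OE libraries lay above all Ctrl and CC libraries. HFD replicate 1 was the lowest sperm library for both. The summed mir-101 level was closer across the groups than its members were, with 801 ± 144 in CD sperm, 1006 ± 435 in HFD sperm, 692 ± 37.8 for Ctrl, 736 ± 143 for CC and 1529 ± 255 for Ang OE.

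**Figure D1:**
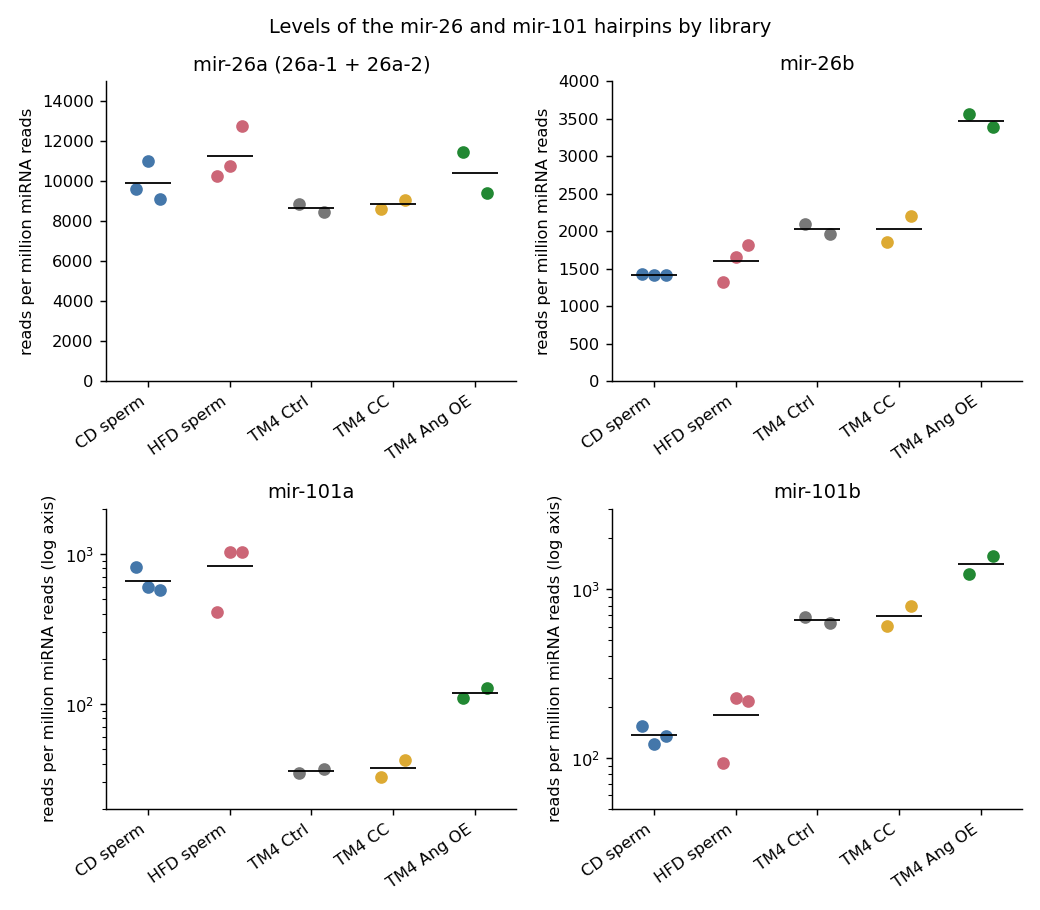
RPM (y axis, reads per 1000000 miRNA reads) of mir-26a, mir-26b, mir-101a and mir-101b in each of the 12 libraries, grouped on the x axis (points are libraries, lines are group means, and the axes of the mir-101 panels are logarithmic). mir-101a lay between 410 and 1035 in sperm and between 32.4 and 129 in TM4 cells, while mir-101b lay between 93.9 and 228 in sperm and between 602 and 1581 in TM4 cells.

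Shares within a family are ratios inside 1 library and do not depend on how libraries are scaled. mir-101a gave 82.7% ± 1.59 (SD, n = 3) of all mir-101 reads on the CD and 81.9% ± 0.608 (n = 3) on the HFD, with an overall range of 81.0% to 84.0%. In TM4 cells its share was 5.16% ± 0.506 (n = 2) in the Ctrl libraries, 5.09% ± 0.0244 (n = 2) after CC and 7.82% ± 0.427 (n = 2) after Ang OE. The Ang OE shares, 7.52% and 8.12%, lay above those of Ctrl and CC, which reached 5.52%, and far below those of sperm. Put as a ratio, sperm libraries had 4.25 to 5.26 mir-101a reads per mir-101b read, and Ctrl libraries had 17.1 and 19.8 mir-101b reads per mir-101a read. A further mir-101 hairpin of the files, mir-101c, which is no member, held 5 to 13.5 reads per sperm library and 0 to 2.5 per TM4 library, where fractions are reads divided between hairpins.

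Of the mir-26 reads, mir-26b gave 12.6% ± 1.101 in sperm of the CD group and 12.4% ± 0.939 in sperm of the HFD group. In TM4 cells Ctrl had a share of 19.0% ± 0.220, CC 18.6% ± 1.26 and Ang OE 25.1% ± 1.93. Sperm, Ctrl with CC, and Ang OE thus occupied ranges that did not overlap, from 11.3% to 13.5%, from 17.7% to 19.5% and from 23.7% to 26.5%. The mir-26 family had 14.4 ± 2.89 reads per mir-101 read in CD sperm, with 15.4 ± 0.287 for Ctrl, 14.98 ± 2.17 for CC and 9.31 ± 2.57 for Ang OE. HFD sperm had 14.8 ± 7.10, a spread that came from HFD replicate 1 at 23.0.

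**Figure D2:**
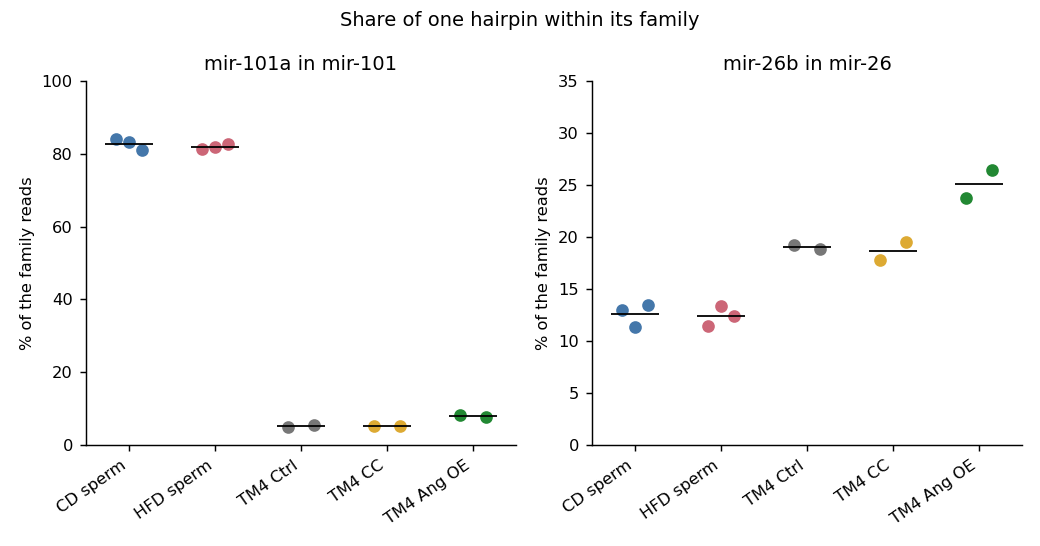
Share (y axis, %) of mir-101a in the mir-101 reads and of mir-26b in the mir-26 reads of each library, by group (points are libraries, lines are group means). The mir-101a share was 81.0% to 84.0% in sperm and 4.80% to 8.12% in TM4 cells, and the mir-26b share was highest in Ang OE, at 23.7% and 26.5%.

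To compare the conditions, each hairpin that reached 10 reads in 3 or more libraries (2 or more for TM4 cells) was fitted with edgeR's quasi-likelihood test after TMM scaling, which sets libraries to a common level over most hairpins, and a hairpin was called at a Benjamini-Hochberg adjusted p under 0.05. All 5 members passed the filter in each of the 4 comparisons. The Ctrl libraries are common to the CC, Ang OE and sperm comparisons, so these are not independent of each other.

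The comparison of HFD with CD sperm asks whether diet alters the small RNAs that sperm carry. No member was called in 5, beside a background of 0% of the hairpins tested, with 31 hairpins (6.87%) at an unadjusted p under 0.05 and 8 called by DESeq2, none of them a member. The log2 fold changes were 0.08 ± 0.15 (SE) for mir-26a-1 and for mir-26a-2, 0.07 ± 0.19 for mir-26b, 0.21 ± 0.36 for mir-101a and 0.29 ± 0.35 for mir-101b, against a median of -0.01 over all hairpins. Each of these was smaller than its standard error, and for none of the 5 did the groups separate (background 6.21%). Without HFD replicate 1, which was the lowest library for the mir-101 hairpins, the members lay at 0.24 to 0.67 and still 0 were called. Without HFD replicate 2, mir-101a lay at -0.06, mir-26b at -0.02, mir-101b at 0.01 and the mir-26a pair at 0.06. Without CD replicate 2, mir-26b lay at -0.02 and the other members stayed above 0. HFD replicate 1 had the highest sums of red blood cell markers (50595 RPM, against 25239 and 36163 in the other HFD libraries) and of white blood cell markers (1422, against 780 and 917 in the other HFD libraries). It had the lowest sums of smooth muscle (30612, against 52005 and 56120) and epithelial markers (8946, against 11272 and 14327). The red blood cell sum came mostly from mir-486a and mir-486b, which reached 24088 and 23938 RPM in HFD sperm. mir-144, another marker of that set, was lower in HFD replicate 1 (150 RPM) than in the other HFD libraries (267 and 240). The summed white blood cell markers separated the diets, since the CD libraries, at 580, 644 and 676 RPM, all lay below the HFD libraries. Of these markers mir-142a alone separated them, at 484 to 575 RPM in CD and 688 to 1179 in HFD sperm. mir-223 and mir-150 overlapped. The sums of the other marker sets overlapped between the diets. HFD replicate 1 also stood apart over all hairpins. The chi-square divided by its degrees of freedom was 1138 and 1468 against the other HFD libraries. Between those libraries it was 286. The part of these other cell types, or of whatever sets this library apart, in the members' levels was not tested.

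The comparison of CC with Ctrl TM4 cells asks what follows inhibition of AMPK in these cells. Of the 5 members 0 were called, where 22 of 533 tested hairpins (4.13%) were. The log2 fold changes were 0.04 ± 0.10 for mir-26a-1 and for mir-26a-2, 0.00 ± 0.10 for mir-26b, 0.07 ± 0.15 for mir-101a and 0.09 ± 0.14 for mir-101b, each smaller than its standard error and against a median of -0.03 over all hairpins. The CC libraries differed from each other more than the groups did, since CC replicate 2 was above both Ctrl libraries for all members, and CC replicate 1 was below both except for mir-26a, where it lay between them. The groups overlapped for all 5, where 47.1% of all hairpins did not overlap.

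The comparison of Ang OE with Ctrl TM4 cells asks what a raised level of angiogenin does to small RNAs. Here all members were higher in Ang OE, the mir-101 hairpins and mir-26b by more than mir-26a. mir-101a was 4.04-fold higher (log2 fold change 2.02 ± 0.15), mir-101b 2.61-fold (1.38 ± 0.14), mir-26b 2.07-fold (1.05 ± 0.10) and mir-26a-1 and mir-26a-2 each 1.46-fold (0.54 ± 0.10). Without Ang OE replicate 1, the higher library for mir-26a, the mir-26a pair lay at 0.35 and was still called. The median over all hairpins was 0.06, and 4 of the 533 hairpins had a larger log2 fold change than mir-101a. Of the 5 members 5 were called higher and 5 did not overlap with Ctrl, beside a background of 38.3% called in either direction, 24.2% called higher and 25.1% higher without overlap, and nothing is read from the members' count because their values were known when they were chosen.

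The size of these differences depended on how the libraries were scaled, and for mir-26a so did the call. With the sum of miRNA reads as library size, the median over all hairpins shifted to -0.21 and 41.3% were called. There mir-26a-1 and mir-26a-2 lay at 0.27 and were not called, and mir-26b, mir-101a and mir-101b were still called. Some marker miRNAs of other cell types also differed between Ang OE and Ctrl. The hairpin mir-143, a miRNA known from smooth muscle, rose from 48544 and 54354 RPM in Ctrl to 93152 and 127843 in Ang OE (log2 fold change 1.38 ± 0.16, edgeR adjusted p = 4.08e-06 for mmu-mir-143). Beside it, the smooth muscle markers summed to 49714 and 55567 RPM in Ctrl, 51422 and 73465 in CC and 94556 and 129039 in Ang OE, and the germ cell markers to 1017 and 1050 in Ctrl and 1932 and 2045 in Ang OE, almost all from mir-34c. mir-145a, the other smooth muscle marker, was at 1171 and 1213 in Ctrl and 1196 and 1404 in Ang OE. The sums of mesenchymal, red blood cell and white blood cell markers were lower than in Ctrl without overlap in both Ang OE and CC, while those of epithelial and gonadal somatic cell markers overlapped. Mesenchymal markers were at 14902 and 15801 RPM in Ctrl, 12605 and 13481 after CC and 13287 and 12801 after Ang OE. Red blood cell markers were at 2857 and 2737 in Ctrl, 1956 and 1879 after CC and 1784 and 1762 after Ang OE, almost all from mir-486a and mir-486b. The part of any of these cell types in the members' levels, or of mir-143 in the shift with scaling, was not tested.

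**Figure D3:**
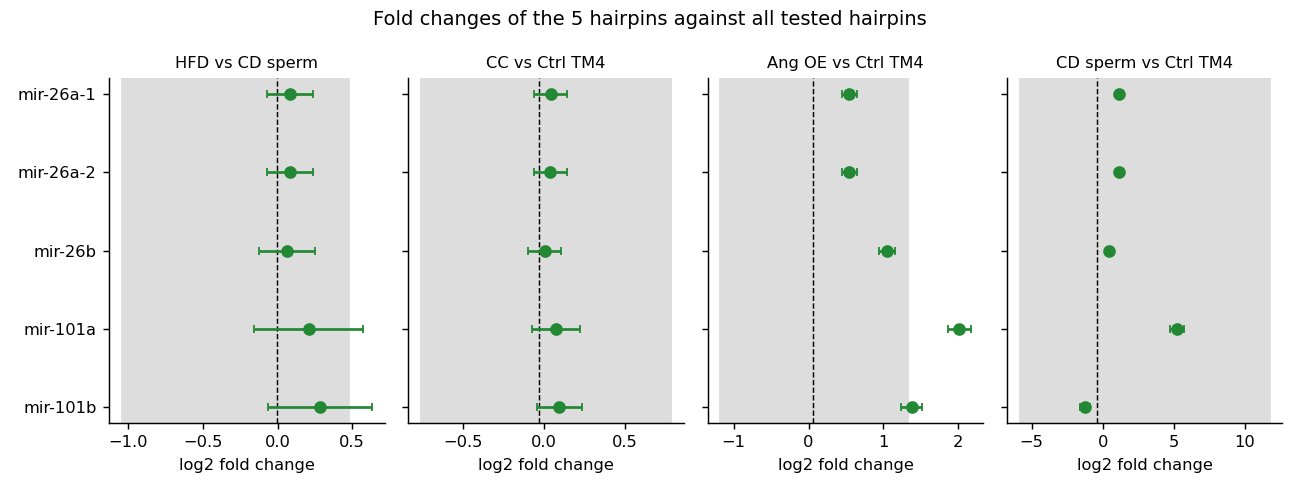
Log2 fold change (x axis) of each member in the 4 comparisons, with its standard error as a bar, the median over all tested hairpins as a dashed line and the 5th to 95th percentile of all hairpins shaded. In HFD against CD sperm and CC against Ctrl the members lie between 0.00 and 0.29, in Ang OE against Ctrl between 0.54 and 2.02, and in CD sperm against Ctrl mir-101a lies at 5.22 and mir-101b at -1.26.

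Hairpins with mature sequences poor in G and C also tended to be higher in Ang OE, and the members are among them. The mean GC content of a member's mature sequences, with both arms weighted alike, was 39.4% for mir-101a, 40.9% for mir-26a, 41.7% for mir-26b and 44.97% for mir-101b. The arms known to bind Ezh2 had 33.3% for miR-101a-3p and for miR-26b-5p, 40.9% for miR-26a-5p and 42.1% for miR-101b-3p. GC content of these arms alone was not used in the bins or the GC term below. When the tested hairpins with a RefSeq sequence (80.3%) were divided by GC content into 5 bins of like size, the median log2 fold change was 0.39 in the bin of lowest GC, then 0.21, -0.12 and -0.16, and -0.46 in the highest, and 4 members were in the lowest bin and 1 in the next. With a GC term for each library, which was chosen after seeing the data, the log2 fold changes were 1.53 for mir-101a, 1.103 for mir-101b, 0.67 for mir-26b and 0.14 for mir-26a-1 and mir-26a-2, and 3 of the 5 were called, without the mir-26a pair. The term left 428 hairpins, of which 27.8% were called. In HFD against CD sperm the medians of the bins lay between -0.09 and -0.02 and in CC against Ctrl between -0.05 and 0.12. In CD sperm against Ctrl they were 1.24, 1.37, -0.27, -1.09 and -1.25 from the lowest to the highest GC, with all 5 members in the lowest 2 bins.

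**Figure D4:**
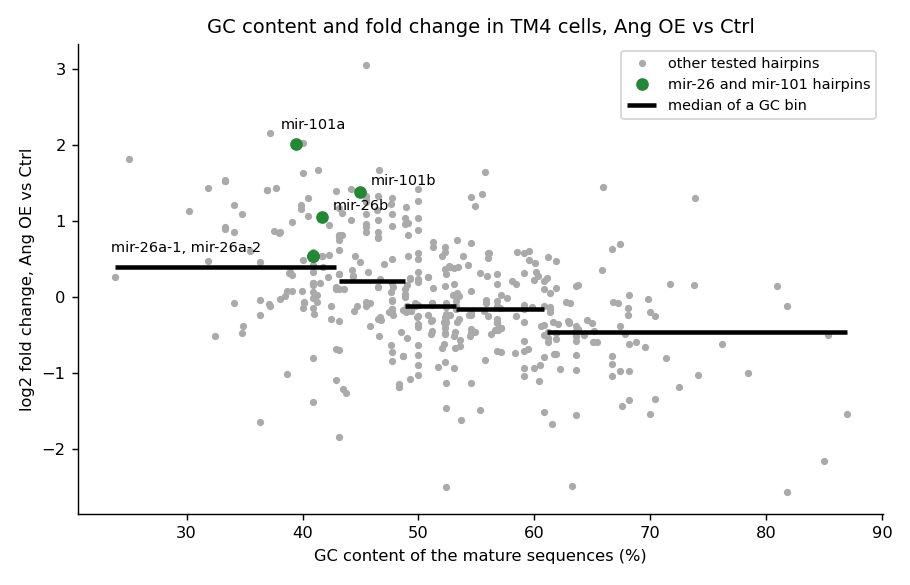
Log2 fold change in Ang OE against Ctrl (y axis) of each tested hairpin against the mean GC content of its mature sequences (x axis, %), with the members in green and the median of each of 5 GC bins as a black line. The medians fall from 0.39 to -0.46 from the lowest to the highest bin, and each member lies above the median of its bin.

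Other hairpins that have been reported to act on Ezh2 were counted for comparison, from a list of 23 that includes the let-7 family, mir-98, mir-138, mir-214, mir-144, mir-25 and mir-32. In HFD against CD sperm 0 of 18 tested were called, with a median log2 fold change of 0.01, and in CC against Ctrl 0 of 17, with a median of 0.03. In Ang OE, 10 of 17 were called higher (background 24.2%) and 1 lower (background 14.1%), with a median of 0.54 beside 0.06 over all hairpins. The 10 hairpins yield 7 different mature miRNAs, since the pairs of let-7a, let-7f and mir-138 hairpins share theirs. The 17 tested hold these pairs and that of let-7c, which was not called. The backgrounds count hairpins, so they give no like share for the 7. The largest changes in Ang OE were those of mir-98 (1.43 ± 0.11, edgeR adjusted p = 6.50e-08), let-7f-2 (1.41 ± 0.10, adjusted p = 5.23e-08), let-7f-1 (1.40 ± 0.10, adjusted p = 5.23e-08) and mir-32 (1.13 ± 0.19, adjusted p = 0.000136). mir-98 and let-7f are miRNAs of the let-7 family, which restrains growth genes. Their mature sequences are also poor in GC, with 31.8% for mir-98, 36.9% for let-7f and 30.2% for mir-32. With the GC term the log2 fold changes were 0.57 for mir-98, 0.81 for let-7f-2, 0.80 for let-7f-1 and 0.19 for mir-32, of which mir-32 was not called. With that term 7 hairpins of the list were called higher (background 14.5%) and 3 lower (let-7b, let-7d and let-7e, background 13.3%), with a median of 0.17 beside -0.07 over all hairpins. With the sum of miRNA reads as library size 6 were higher (background 15.2%) and 5 lower (background 26.1%), with medians of 0.26 and -0.21. Against 831 and 758 RPM in Ctrl, mir-98 stood at 1737 and 1796 in Ang OE. The hairpin of the list that fell was mir-214 (-0.34 ± 0.11, adjusted p = 0.0174), which is also on the list of mesenchymal markers. With the GC term it lay at -0.17 and was not called (adjusted p = 0.267).

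**Figure D5:**
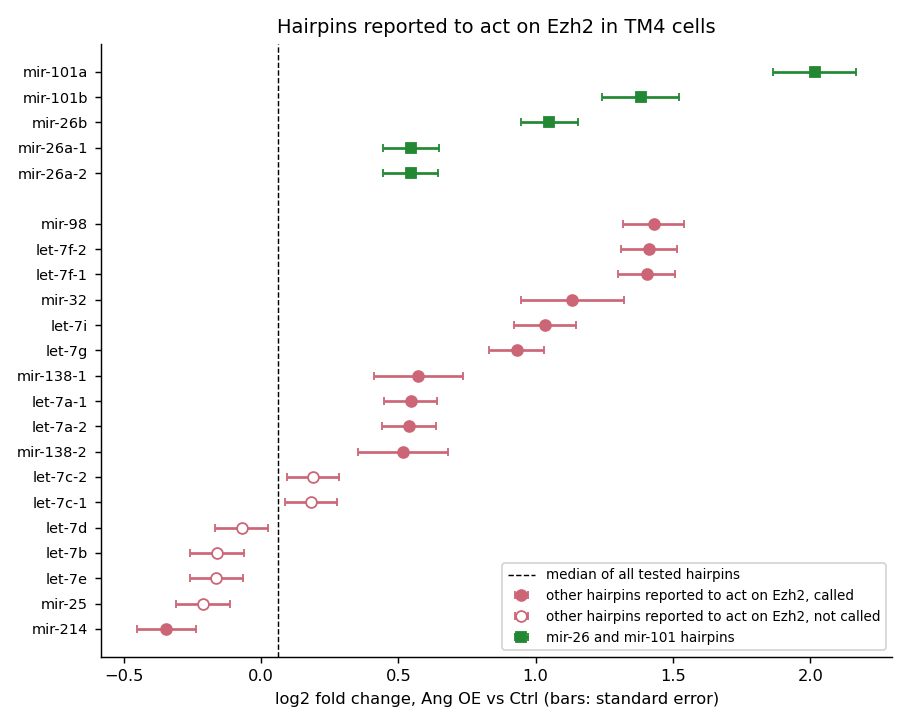
Log2 fold change in Ang OE against Ctrl (x axis, with standard errors) of the 5 members (squares) and of the 17 tested hairpins of the list of others reported to act on Ezh2 (circles, filled where called), with the median over all hairpins as a dashed line. mir-101a, at 2.02, lies above the 17 others, whose highest is mir-98 at 1.43, and let-7b, let-7d, let-7e and mir-25 were not called and lie below 0.

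The pattern of the summed mir-26 level over the 5 groups was most like that of let-7a-1, let-7a-2 and let-7g. Likeness was measured as the root mean square difference of group means on the log2 scale, each hairpin centred on its own mean, over 89 hairpins with at least 100 RPM in every group. It was 0.0846, 0.0985 and 0.113 for these 3, against a median of 0.903. For the summed mir-101 the nearest were let-7f-1 (0.149), let-7g (0.165) and mir-210 (0.174, a miRNA induced by hypoxia), against a median of 0.977. The points are the same 5 groups and libraries for every hairpin, and the likeness is a description.

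CD sperm was set against Ctrl TM4 cells to place the members in the 2 materials, which also differ in depth and in the cells they contain. In the fit of all 12 libraries mir-101a was higher in sperm by 5.22 ± 0.49 on the log2 scale and mir-101b lower (-1.26 ± 0.36), and mir-26a-1 and mir-26a-2 were higher by 1.18 ± 0.21, while mir-26b (0.47 ± 0.24) was not called. Thus 4 of 5 were called beside a background of 80.1% of 623 hairpins. By RPM 5 of 5 did not overlap beside 92.1%, with mir-26a-1, mir-26a-2 and mir-101a higher in sperm and mir-26b and mir-101b lower, so that mir-26b lay on the other side by RPM than in the fit. The directions of the mir-101 hairpins held in each alternative fit, also without any 1 library, where mir-101a ranged from 3.22 to 5.67 and mir-101b from -2.63 to -0.80 (not called by DESeq2). Sums of markers of other cell types also differed between the 2 materials as given above, though those of smooth muscle overlapped. Their part in the members' levels was not tested. For mir-26a the direction depended on the scaling, since the median over all hairpins went from -0.42 with TMM to -1.63 with clean reads as library size, where mir-26a-1 lay at -0.038, and it lay at -0.64 with the GC term. The mir-26a pair was not called with clean reads or with the sum of miRNA reads, and was called lower with the GC term. In a model of CD sperm and Ctrl alone, mir-26a-1 lay at 0.66 and mir-26a-2 at 0.65, both called higher. There mir-26b lay at -0.05 and was not called. mir-26b was called in opposite directions. It was lower with clean reads (-0.75), the sum of miRNA reads (-0.52) and the GC term (-1.27). It was higher with DESeq2 (0.92), with a filter of at least 100 reads (0.62) and without HFD replicate 1 (0.91). No direction is therefore given for it.

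Of the list of others reported to act on Ezh2, 9 of 18 were called higher (background 37.6%) and 4 lower (background 42.5%) in CD sperm, with a median of 0.46 beside -0.42 over all hairpins. The split turned with the scaling, and the split over all hairpins moved too. With clean reads 3 were higher (background 30.8%) and 9 lower (58.3%), with medians of -0.76 for the list and -1.63 over all hairpins. With the sum of miRNA reads 5 were higher (31.6%) and 9 lower (56.5%), with medians of -0.52 and -1.39. With the GC term 1 was higher (37.4%) and 11 lower (45.2%), with medians of -0.57 and -0.69. mir-214, a mesenchymal miRNA, was lower by the largest margin (-3.48 ± 0.23, edgeR adjusted p = 6.00e-10), and let-7c-1 and let-7c-2, which yield the same mature miRNA, were higher (1.75 ± 0.20, adjusted p = 4.46e-07, and 1.74 ± 0.20, adjusted p = 4.85e-07). With the GC term mir-214 lay at -3.25 and was called, and let-7c-1 and let-7c-2 lay at -0.07 and -0.08 and were not. mir-144, which is known from red blood cells and is also on that list of markers, stood at 101.2, 149 and 183 RPM in CD sperm and at 0 and 0.0560 in Ctrl.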

How the data were processed

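Small RNA was sequenced from sperm and TM4 cells. The authors trimmed reads with Trimmomatic 0.40 (quality checked with FastQC 0.12.0), kept reads of 15 to 45 nt and annotated them with SPORTS1.1, allowing 1 mismatch. The labels name the build mm10. The deposited files give estimated counts per miRBase hairpin, both arms together, with reads that match several hairpins divided among them and no scaling for library size. Groups were taken from the labels, and all 12 libraries were used. Reads with and without a genome match were added, though no member had a read without one, and rounded for the fits.

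Each hairpin that reached 10 reads in 3 or more libraries (2 or more for TM4 cells) was fitted with edgeR 4.0.16 in R 4.3.3 (TMM, quasi-likelihood test, Benjamini-Hochberg adjustment), with TM4 groups in 1 model of their 6 libraries and CD sperm against Ctrl in 1 model of all 12. The code was tested on simulated data. Alternatives were DESeq2 1.42.0, other library sizes, other filters, genome-matched reads alone, ComBat-seq (sva 3.50.0), a replicate block, models without the groups not compared, each library left out and, added after seeing the data, a GC term. The methods mention a batch adjustment of the cell line data, and which libraries formed a batch is not given in the sources used here. Named hairpins were the members, up to 4 called hairpins per comparison from the Ezh2 list (largest change, no overlap, mean of at least 100 reads, with mir-214 in Ang OE and the uncalled members of its plot named after their values were seen), the 3 nearest in pattern and the markers. The members and lists were chosen with earlier results of these data known.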

Additional observations from a re-analysis of the deposited data

How the results depend on the processing

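In HFD against CD sperm DESeq2 called 8 hairpins, and with each library left out 0 were called and the members' log2 fold changes lay between -0.06 and 0.67. The log2 ratio of the summed mir-101 level was 0.33 by RPM and that of mir-26 was 0.18, with 0.13 to 0.65 and 0.08 to 0.26 when libraries were left out.

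In CC against Ctrl, calls numbered 35 with the replicate block, 39 after ComBat-seq and 13 with the GC term, and 0 to 26 when a library was left out, with 0 without CC replicate 1 and 0 without CC replicate 2. The mir-101 log2 ratio was 0.09 by RPM and lay between -0.13 and 0.27 without 1 library.

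In Ang OE against Ctrl, the GC term gave 119 calls. The mir-26 log2 ratio was 0.38 by RPM, 0.52 with clean reads, 0.66 with TMM sizes and 0.26 to 0.49 without 1 library. The mir-101 ratio was 1.14 by RPM, 1.42 with TMM sizes and 0.96 to 1.30 without 1 library. With each library left out, all 5 members were called, where a lone library is assumed to vary like the other groups.

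In CD sperm against Ctrl, 331 hairpins were called with a filter of at least 100 reads. For mir-26a-1 and mir-26a-2 the log2 fold change turned to -0.038 and -0.039 with clean reads and to -0.64 and -0.64 with the GC term. The log2 ratios were 0.09 (mir-26) and 0.21 (mir-101) by RPM, -0.15 and -0.017 with clean reads and 1.07 and 1.21 with TMM sizes. Unless stated, the cause was not tested.

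No clear pairing by replicate number was seen in sperm, with same-number correlations of deviations of -0.34, -0.24 and 0.07. In TM4 cells they were -0.02 for Ctrl with CC, -0.10 for Ctrl with Ang OE and 0.16 for CC with Ang OE. With 2 libraries per group, each pair of groups gives 1 independent value, too few to settle pairing. The replicate block gave 0 calls in HFD against CD sperm, 35 in CC against Ctrl, 222 in Ang OE and 471 in CD sperm against Ctrl. It changed no member's call. With 2 libraries per TM4 group, small differences cannot be resolved.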
